A study of Mus musculus with 6 samples.

Results

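Immediate early and NF-kB response genes are genes that cells switch on within minutes to hours of a growth factor, cytokine or stress signal. A list of 42 such genes was described across 6 mouse leukemias, taking for each gene the probe set with the highest mean among those annotated to its symbol alone. Such a probe set was found for 41 of the 42 genes out of 22180 named genes. Nfkb1 was not analysed here. The level filter used for testing was passed by 40 members, out of 15526 genes tested in all, and Ptgs2 was the member below it.

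The samples were c-Kit+ leukemic cells sorted from the spleens of end stage mice, 3 of the genotype Chd7f/f, Mx1-Cre, Cbfb+/56M and 3 of the genotype Mx1-Cre, Cbfb+/56M, called Chd7f/f and control here. All mice carried the Mx1-Cre recombinase, which is active in interferon-responsive cells of many tissues, and the Cbfb+/56M allele of the leukemia fusion of Cbfb and MYH11, and all received pIpC and the mutagen ENU. Floxed Chd7 alleles were the one difference named. Each sample gave total RNA for 1 Affymetrix mouse array, with levels given as log2 values after RMA, so that a step of 1 is a change of 2-fold. The level of a probe set depends on its own probes, so levels of different genes are not ranked against each other. In bulk RNA, fewer cells of a type and less RNA per cell cannot be told apart.

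The transcription factor genes of the first wave include Fos, Jun and Egr1. They are transcribed without new protein synthesis once MAP kinases and the serum response factor SRF are active. AP-1 is a dimer of Fos and Jun family proteins. NF-kB is held in the cytoplasm by IkB proteins until they are degraded, and it then drives genes for its own inhibitors, such as Nfkbia and Tnfaip3, as well as cytokine genes. In blood cells these genes also respond to tissue dissociation and cell sorting, so their level after a sort can carry a mark of handling.

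Promoters of 5 members are shown because they carry the letters that the factors of these pathways are known to bind, and because their genes stand for the groups described below: Fos and Zfp36 for genes that were highest on the same array, Egr2 for the EGR genes, Nfkbia for NF-kB feedback and Il6 for the widest spread between leukemias. Each run covers 250 bases before to 50 bases after a transcription start in RefSeq's annotation of GRCm38.p6, written 5′ to 3′ on the gene's strand, and capitals mark matches to the motifs searched. The positions are chr12:85473640-85473939 (plus strand) for Fos, chr7:28379179-28379478 (minus strand) for Zfp36, chr10:67537619-67537918 (plus strand) for Egr2, chr12:55492598-55492897 (minus strand) for Nfkbia and chr5:30012864-30013163 (plus strand) for Il6.
Fos: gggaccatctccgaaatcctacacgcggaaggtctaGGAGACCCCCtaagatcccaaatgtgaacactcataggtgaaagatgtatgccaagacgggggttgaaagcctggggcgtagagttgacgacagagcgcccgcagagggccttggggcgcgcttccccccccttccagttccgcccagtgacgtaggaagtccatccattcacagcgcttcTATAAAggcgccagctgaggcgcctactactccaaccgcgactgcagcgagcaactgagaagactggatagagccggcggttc
Zfp36: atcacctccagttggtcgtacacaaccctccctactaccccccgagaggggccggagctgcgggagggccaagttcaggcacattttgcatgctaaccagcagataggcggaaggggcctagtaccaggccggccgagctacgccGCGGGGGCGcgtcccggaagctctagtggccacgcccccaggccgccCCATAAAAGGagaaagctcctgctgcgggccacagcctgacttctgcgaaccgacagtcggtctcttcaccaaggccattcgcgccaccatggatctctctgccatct
Egr2: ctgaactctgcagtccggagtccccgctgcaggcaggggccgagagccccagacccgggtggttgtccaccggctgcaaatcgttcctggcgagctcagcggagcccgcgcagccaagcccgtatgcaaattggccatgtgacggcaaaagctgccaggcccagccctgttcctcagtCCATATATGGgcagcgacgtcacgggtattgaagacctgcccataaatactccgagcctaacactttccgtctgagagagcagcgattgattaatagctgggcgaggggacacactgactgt
Nfkbia: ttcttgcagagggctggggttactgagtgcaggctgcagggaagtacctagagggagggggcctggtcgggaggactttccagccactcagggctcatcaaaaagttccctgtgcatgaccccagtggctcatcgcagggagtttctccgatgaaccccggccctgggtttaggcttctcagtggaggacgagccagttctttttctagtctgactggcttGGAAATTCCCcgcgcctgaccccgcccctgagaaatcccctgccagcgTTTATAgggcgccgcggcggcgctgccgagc
Il6: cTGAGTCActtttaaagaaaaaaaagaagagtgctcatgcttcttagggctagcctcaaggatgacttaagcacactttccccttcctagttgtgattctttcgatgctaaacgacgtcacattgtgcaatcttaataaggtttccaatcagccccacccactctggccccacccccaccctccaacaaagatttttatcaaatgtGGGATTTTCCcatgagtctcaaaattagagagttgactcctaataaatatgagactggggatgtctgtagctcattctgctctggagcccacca

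In these windows Fos has a TATA box that begins 33 bases before the start and a kB site further upstream. The Fos window has no match to the CArG box, CRE, AP-1 or EGR letters, and bases outside the windows were not searched. Zfp36 has an EGR site and a CArG box, the SRF element, which begins 58 bases before the start. Egr2 has a CArG box that begins 72 bases before the start of the window shown. Nfkbia has a kB site 29 bases before the start. Its match to the TATA box letters is on the opposite strand and lies after the start, at position 20. Il6 has a kB site 44 bases before the start and an AP-1 site at the far end. RefSeq promoter windows were found for 34 of the 42 members.

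The motifs were searched on both strands: TGAGTCA for AP-1, TGACGTCA for the CRE of CREB and ATF factors, GCGNGGGCG for EGR, TATAAA for the TATA box, and the CArG box and the kB site by their consensus. No 2 different motifs overlapped in any member's window. A kB site was in a window of 14 of 34 members, or 41.2%, against 5.14% of all 27025 genes with a window, and an EGR site in 9 of 34, or 26.5%, against 6.27%. A CArG box was in 2 of 34 members against 1.81% of all genes, an AP-1 site in 3 of 34 against 5.95%, a CRE in 3 of 34 against 2.03%, and a TATA box in 7 of 34 against 15.7%. The list was put together from known NF-kB and growth factor targets, so these shares describe the list, and a match is not evidence of binding.

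Before the members, some facts of the series bear on how they are read. Array medians lay between 4.72 and 4.84. Control replicate 1 stood apart on the first principal component of the tested genes, which held 33.7% of the variance, with a score of 55.0 against -25.1 to -3.35 on the other arrays. On the second, with 30.2%, Chd7f/f replicate 1 stood lowest at -45.2, against -13.1 to 33.2, and it had the lowest array weight, 0.418. The X-inactivation gene Xist reached 10.08 in control replicate 2, against 3.30 to 3.88 for the remaining arrays, and no label states sex. Kit, which encodes the sorted surface receptor, measured 12.48, 11.69 and 11.90 in Chd7f/f and 11.72, 12.12 and 11.68 in control leukemias. Chd7 was at 5.48, 6.50 and 5.91 in Chd7f/f and 6.17, 7.54 and 5.32 in control leukemias. Where its probes lie is not given, so the deletion itself was not checked by it.

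Most of the members were well above the middle of the arrays in every leukemia, and none separated the genotypes. Of 41 measured members 31 had a mean of at least 5.78, 1 log2 step above the median level of the arrays. The other 10 were Maff, Egr2, Egr3, Traf1, Il1b, Cxcl2, Ccl3, Ccl4, Ptgs2 and Cd83, which may lie near background, since detection calls are not analysed here. Members ranged over the 6 arrays by 0.78 in the median, against 0.57 over all tested genes, and 12 of 40 members ranged by at least 1, against 22.3% of all tested genes. The median range within the 3 arrays of a genotype was 0.44 in Chd7f/f and 0.66 in control leukemias, against 0.38 and 0.35 over all tested genes. The difference between genotype means was smaller than the larger of these ranges for 40 of 40 tested members and for 97.4% of all tested genes.

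**Figure D1:**
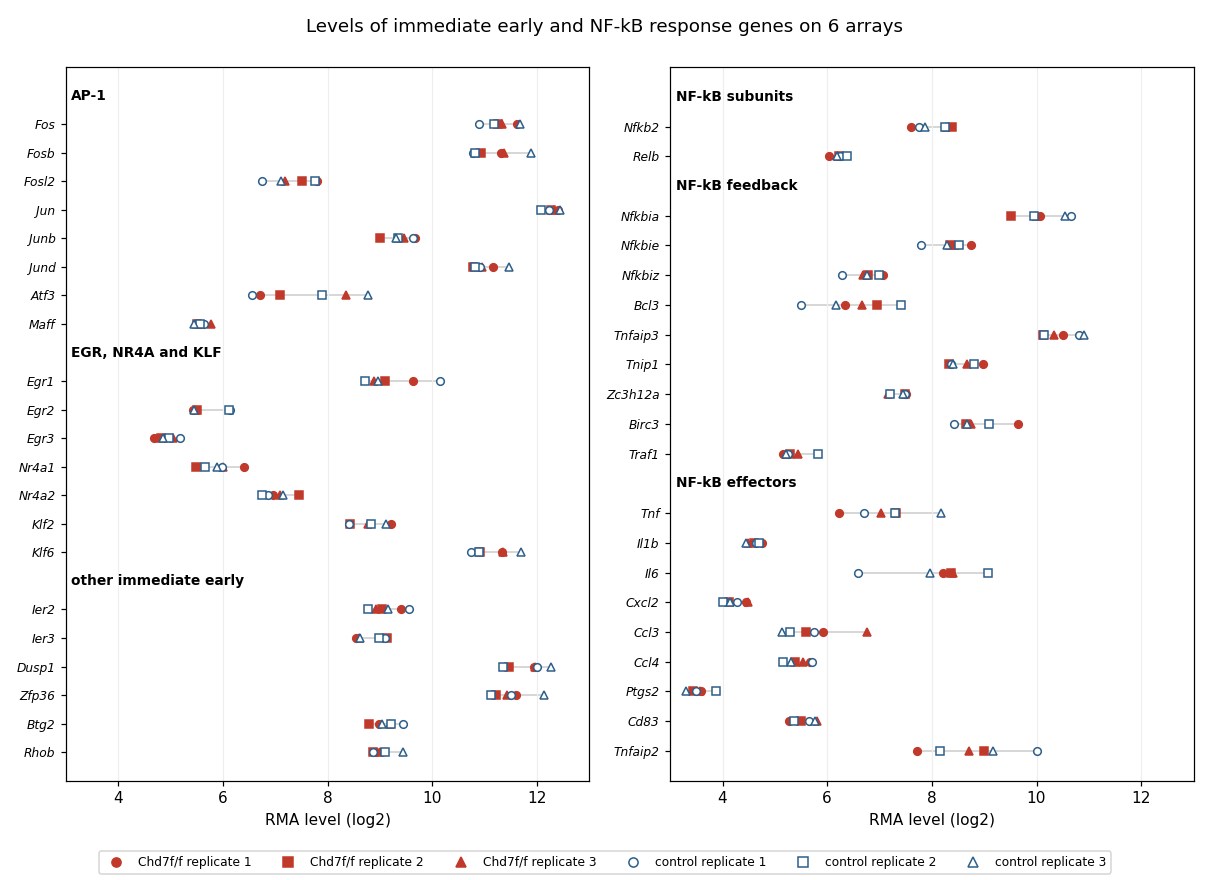
RMA levels (log2, x axis) of the 41 measured genes by role, with filled symbols for the 3 Chd7f/f arrays, open symbols for the 3 control arrays and a grey line for the range. Fos, Jun and Dusp1 lie above 10.8 on every array, Il1b and Ptgs2 below 4.8, and no gene has its genotypes apart.

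Of the 8 AP-1 genes, 5 were highest in control replicate 3 (Fos, Fosb, Jun, Jund and Atf3) and 4 were lowest in control replicate 1 (Fos, Fosb, Fosl2 and Atf3), so that the control leukemias held both ends. Fos, the partner that is induced fastest, was at 11.61, 11.25 and 11.34 in Chd7f/f and 10.89, 11.18 and 11.67 in control leukemias. Fosb, a close relative of Fos, was at 11.32, 10.93 and 11.37 in Chd7f/f and 10.78, 10.81 and 11.89 in control leukemias. For both genes the lowest and the highest of the 6 values were control arrays, replicates 1 and 3, and the Chd7f/f values lay between them.

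Jun, which pairs with Fos proteins or with itself, varied little, from 12.26 to 12.41 in Chd7f/f and from 12.08 to 12.44 in control leukemias. Jund, a more steadily expressed member of the family, was at 10.79 to 11.16 in Chd7f/f and 10.82 to 11.46 in control leukemias. Its second probe set was at 6.85 to 7.15 in Chd7f/f and 6.96 to 7.48 in control leukemias. Control replicate 3 had the highest value on both Jund probe sets. Junb, which often opposes Jun at growth genes, was lowest in Chd7f/f replicate 2 at 8.99 and highest in Chd7f/f replicate 1 at 9.66, with the control arrays between 9.31 and 9.64.

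Atf3, a stress-induced bZIP factor that can act as a repressor, had the widest range of this group. It was at 6.70, 7.09 and 8.35 in Chd7f/f and 6.55, 7.90 and 8.76 in control leukemias, so each genotype held low and high leukemias. Fosl2, a Fos relative with slower kinetics, was at 7.80, 7.51 and 7.18 in Chd7f/f and 6.74, 7.77 and 7.10 in control leukemias. Its order over the arrays differed from that of Fos, with control replicate 3 near the low end. Maff, a small Maf protein without an activation domain, stayed between 5.45 and 5.78 on all arrays.

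Between genotypes the 8 AP-1 genes differed by little in relation to this spread. Atf3 differed by -0.36 (SE 0.66, 95% interval -1.96 to 1.24) and Fosl2 by 0.30 (SE 0.30, 95% interval -0.43 to 1.02). Fos differed by 0.15 (95% interval -0.40 to 0.70) and Jun by 0.09 (95% interval -0.24 to 0.41). Fosl2 was at 0.066 without control replicate 1 and 0.58 without control replicate 2. The difference of Fos turned to -0.028 without control replicate 1, and that of Atf3 to 0.16 without control replicate 3.

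The EGR genes were ordered otherwise than the AP-1 genes. Egr1, a zinc finger factor induced through SRF, was at 9.63, 9.10 and 8.88 in Chd7f/f and 10.15, 8.71 and 8.97 in control leukemias. Control replicate 1 was the highest array for Egr1 while it was the lowest for Fos and Fosb. Egr2, a relative with a role in myeloid and lymphoid cells, was at 5.42, 5.51 and 5.49 in Chd7f/f and 6.14, 6.11 and 5.44 in control leukemias. Control replicates 1 and 2 were above the rest for Egr2, and control replicate 3 was among the Chd7f/f values. Egr3 ran from 4.67 to 5.03 in Chd7f/f and from 4.85 to 5.18 in control samples, and control replicate 1 was again the highest.

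Egr2 differed by -0.42 (SE 0.21, 95% interval -0.93 to 0.08). It lay between -0.65 without control replicate 3, the control array among the Chd7f/f values, and -0.30 without control replicate 1. Without control replicate 3 its unadjusted p was 0.0034 in limma, and 2.26% of all tested genes were under 0.05 in that fit. None passed after adjustment. Egr1 differed by -0.07 (SE 0.41, 95% interval -1.06 to 0.92), a value that became 0.37 without control replicate 1.

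Among the orphan nuclear receptors, Nr4a2 was at 6.96, 7.45 and 7.09 in Chd7f/f and 6.85, 6.74 and 7.15 in control leukemias, a difference of 0.25 (SE 0.18, 95% interval -0.19 to 0.69). Its relative Nr4a1 had its lowest and highest values in Chd7f/f leukemias, 5.48 in replicate 2 and 6.39 in replicate 1, with control leukemias between 5.66 and 5.98. Klf6, a Krüppel-like factor, was at 11.33, 10.91 and 11.34 in Chd7f/f and 10.73, 10.90 and 11.70 in control leukemias. The order of its 6 arrays was that of Fosb, with control replicate 1 lowest and control replicate 3 highest. Klf2, a Krüppel-like factor of quiescent lymphocytes and endothelium, spanned 8.42 to 9.20 in Chd7f/f and 8.41 to 9.12 in control leukemias.

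Dusp1 and Zfp36, feedback genes of the first wave, were highest on the same array as Fos. Dusp1, a phosphatase that switches off MAP kinases, was at 11.93, 11.46 and 11.96 in Chd7f/f and 12.00, 11.36 and 12.26 in control leukemias. Zfp36, or tristetraprolin, which destabilises cytokine mRNAs such as that of Tnf, was at 11.61, 11.22 and 11.43 in Chd7f/f and 11.50, 11.11 and 12.14 in control leukemias. For both genes control replicate 3 was highest, control replicate 2 lowest and Chd7f/f replicate 2 next lowest.

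Btg2, an antiproliferative gene and p53 target, was at 8.97, 8.80 and 9.19 in Chd7f/f and 9.45, 9.22 and 9.04 in control leukemias, a difference of -0.25 (SE 0.16, 95% interval -0.65 to 0.15). Rhob, a short-lived small GTPase, was at 8.93, 8.86 and 9.0 in Chd7f/f and 8.87, 9.09 and 9.43 in control leukemias, a difference of -0.20 (SE 0.17, 95% interval -0.60 to 0.20), or -0.051 without control replicate 3. The values of both genes overlapped between genotypes. Ier2 and Ier3, the remaining genes of this group, ranged by 0.79 and 0.60 over the arrays and differed by -0.04 and -0.13. All 6 genes of the group were lower in Chd7f/f leukemias, where 8741 of all 15526 tested genes were lower. Their median difference was -0.15, where the median over all tested genes was -0.03, and none passed the test. Without control replicate 3 Dusp1 and Zfp36 were 0.10 and 0.11 higher instead, and Ier2 was 0.16 higher without control replicate 1.

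**Figure D2:**
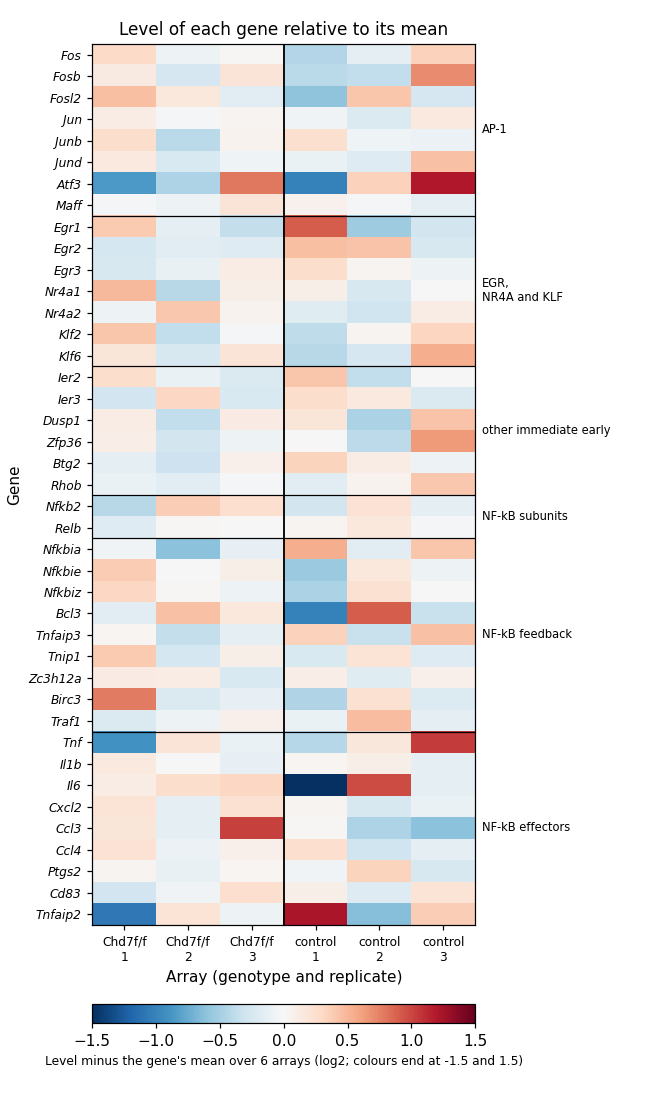
Level of each of the 41 measured genes on each array minus its own mean over the 6 arrays (log2, colour; red above and blue below the mean), with genes in rows by role and arrays in columns, Chd7f/f left of control. Control replicate 1 has Fos, Fosb, Atf3, Bcl3 and Il6 at their lowest and Egr1, Nfkbia and Tnfaip2 at their highest, and control replicate 3 has Fosb, Atf3, Zfp36 and Tnf at their highest.

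The arrays that held the extreme values differed between groups of genes. Control replicate 3 was the highest array for 11 of 40 tested members, or 27.5%, and for 12.6% of all tested genes. Those 11 were Fos, Fosb, Jun, Jund, Atf3, Klf6, Dusp1, Zfp36, Rhob, Tnfaip3 and Tnf. Control replicate 1 was highest for 8 members, or 20.0%, and for 24.4% of all tested genes, and these included the 3 EGR genes, Ier2, Btg2 and Nfkbia. The same array was lowest for 11 members, or 27.5%, and for 16.4% of all tested genes, among them Fos, Fosb, Fosl2, Atf3 and Klf6. Chd7f/f replicate 1 was highest for 10 members, or 25.0%, and for 18.7% of all tested genes, and 5 of these were NF-kB feedback genes.

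Of the NF-kB subunit genes, Nfkb2, the precursor of the noncanonical pathway, was at 7.61, 8.39 and 8.27 in Chd7f/f and 7.75, 8.24 and 7.87 in control leukemias. Its partner Relb was at 6.03, 6.23 and 6.21 in Chd7f/f and 6.25, 6.37 and 6.19 in control leukemias. Chd7f/f replicate 1 was the lowest array for both, and the genotypes overlapped. Nfkb2 differed by 0.13 (SE 0.25, 95% interval -0.47 to 0.74) and Relb by -0.12 (SE 0.12, 95% interval -0.40 to 0.17).

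The inhibitors that NF-kB induces did not share 1 pattern. Nfkbia, the gene of IkB alpha, was at 10.06, 9.51 and 9.99 in Chd7f/f and 10.66, 9.95 and 10.54 in control leukemias. Control replicates 1 and 3 were above all Chd7f/f arrays, and control replicate 2 lay among them. Nfkbia differed by -0.53 (SE 0.25, 95% interval -1.13 to 0.07), had the smallest unadjusted p of the members at 0.0728, and lay between -0.75 without control replicate 2 and -0.36 when Chd7f/f replicate 2 was left out. Tnfaip3, the deubiquitinase that ends signalling to NF-kB, followed a similar order, at 10.51, 10.12 and 10.34 in Chd7f/f and 10.82, 10.15 and 10.91 in control leukemias, with a difference of -0.30 (SE 0.23, 95% interval -0.87 to 0.27) that lay between -0.54 and -0.16 when an array was left out.

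Nfkbie, the gene of IkB epsilon, ran the other way, at 8.74, 8.35 and 8.44 in Chd7f/f and 7.79, 8.51 and 8.28 in control leukemias. Control replicate 1 was its lowest array, where Nfkbia was highest, and the difference was 0.32 (SE 0.22, 95% interval -0.21 to 0.85), or 0.11 without that array. Nfkbiz, a nuclear IkB protein needed for Il6 induction, was likewise lowest in control replicate 1, at 6.29, with 6.68 to 7.07 in Chd7f/f and 6.75 and 6.99 in the other control leukemias. Bcl3, a nuclear IkB protein that acts as coactivator, had the widest range of the group, at 6.35, 6.95 and 6.66 in Chd7f/f and 5.49, 7.41 and 6.17 in control leukemias. Both extremes of Bcl3 were control arrays, replicates 1 and 2, and its difference of 0.29 (SE 0.48) became -0.14 without the first and 0.82 without the second.

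Birc3, an inhibitor of apoptosis and ubiquitin ligase of TNF receptor complexes, was at 9.65, 8.66 and 8.75 in Chd7f/f and 8.42, 9.10 and 8.66 in control leukemias. Chd7f/f replicate 1 stood above the other 5 arrays, and the difference of 0.29 (SE 0.32) became -0.02 without it. The ubiquitin-binding partner of Tnfaip3, Tnip1, differed by 0.14, the RNase gene Zc3h12a, which degrades Il6 mRNA, by 0.01, and the adaptor gene Traf1 by -0.14. Their ranges over the 6 arrays were 0.66, 0.35 and 0.67.

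The cytokine and other effector genes held the widest spread between leukemias. Il6, the gene of interleukin-6, was at 8.21, 8.37 and 8.41 in Chd7f/f and 6.59, 9.08 and 7.96 in control leukemias. The 3 Chd7f/f values lay within 0.20 of each other and the control values within 2.49, with the lowest and the highest array both in the control. Il6 differed by 0.46 (SE 0.59, 95% interval -0.97 to 1.88), by 1.06 without control replicate 2 and by -0.19 without control replicate 1. Control replicate 1, the array with the lowest Il6, also had the lowest mean of 6 tested mast cell and basophil genes, at -0.57 relative to each gene's own mean, against -0.0046 to 0.31 on the other arrays. Of these, Fcer1a (10.75), Ms4a2 (11.05) and Hdc (9.86) were at their lowest there, while Cpa3 (13.01), Mcpt8 (4.52) and Gata2 (11.90) lay within the values of the other arrays. The mean of the 4 measured erythroid genes of 8 listed was 1.60 there and -1.39 to 0.68 on the others. Slc4a1 (11.47) and Tfrc (11.06) were at their highest there, while Klf1 (10.03) and Epor (8.67) lay within the values of the other arrays. The mean of the 2 tested megakaryocyte genes was also highest there, at 1.14 against -0.92 to 0.10 on the others. Of these, Gp9 (10.81) was at its highest there and Itga2b (9.05) at its lowest. The part of all these markers in the level of Il6 was not tested.

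Tnf, the gene of tumour necrosis factor, was at 6.22, 7.32 and 7.03 in Chd7f/f and 6.69, 7.29 and 8.17 in control leukemias, a difference of -0.53 (SE 0.44, 95% interval -1.61 to 0.54). Control replicate 3 was its highest array, as for Zfp36 and Tnfaip3, and without it the difference was -0.14. Tnfaip2, a TNF-induced gene of myeloid and endothelial cells, was at 7.72, 8.99 and 8.71 in Chd7f/f and 10.01, 8.15 and 9.16 in control leukemias. Its values overlapped between genotypes, and the difference was -0.64 (SE 0.54, 95% interval -1.94 to 0.67), with -1.11 without control replicate 2 and -0.19 without control replicate 1.

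Ccl3, a chemokine of macrophages and mast cells, was at 5.92, 5.59 and 6.76 in Chd7f/f and 5.75, 5.28 and 5.13 in control leukemias. Chd7f/f replicate 3 was above the other arrays, and 1 control value lay among the Chd7f/f values. Ccl3 had the largest difference of the members at 0.71 (SE 0.33, 95% interval -0.10 to 1.51), and this was 0.37 when Chd7f/f replicate 3 was left out, or 0.95 when replicate 2 was. When arrays were weighted by their quality it was 1.11, with the largest weight on Chd7f/f replicate 3. Of 10 monocyte and macrophage markers 9 were measured. Their mean level was 6.26, 5.76 and 6.66 in Chd7f/f and 5.75, 6.15 and 5.36 in control leukemias, highest in Chd7f/f replicate 3 too. Of the 9, Cd14 and Fcgr3 were highest in control replicate 2 and Cx3cr1 in control replicate 1. Chd7f/f replicate 3 was also highest for the means of the neutrophil, dendritic cell, and T and NK cell markers. These were 0.73, 0.25 and 0.32 there relative to each gene's own mean, over 7 of 10, 4 of 6 and 3 of 7 listed genes. Zbtb46 of the dendritic cell markers and Cd3d of the T and NK cell markers were highest on other arrays. Several of these markers may lie near background even in Chd7f/f replicate 3, whose median was 4.77. Ly6g (4.49), Mmp9 (4.38), Cd3d (4.25) and Cd8a (4.73) were below that median there, and Flt3 (4.93) little above it. Ngp (7.21), Ltf (6.41) and Cd209a (9.93) were well above it. The part of these markers in the level of Ccl3 was not tested. Cd14, a defining marker of the monocyte and macrophage list, was between 3.81 and 4.71 on all arrays, below the array medians.

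Il1b, the gene of interleukin-1 beta, was at 4.75, 4.61 and 4.48 in Chd7f/f and 4.64, 4.70 and 4.45 in control leukemias, close to the array medians and with a range of 0.30. Cxcl2 was between 4.0 and 4.48, Ccl4 between 5.16 and 5.71 and Cd83, a surface marker of activated dendritic cells, between 5.27 and 5.81. Ptgs2, the inducible cyclooxygenase, was at 3.43 to 3.59 in Chd7f/f and 3.31 to 3.88 in control samples and was not tested. None of the 5 genes had its genotypes apart.

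**Figure D3:**
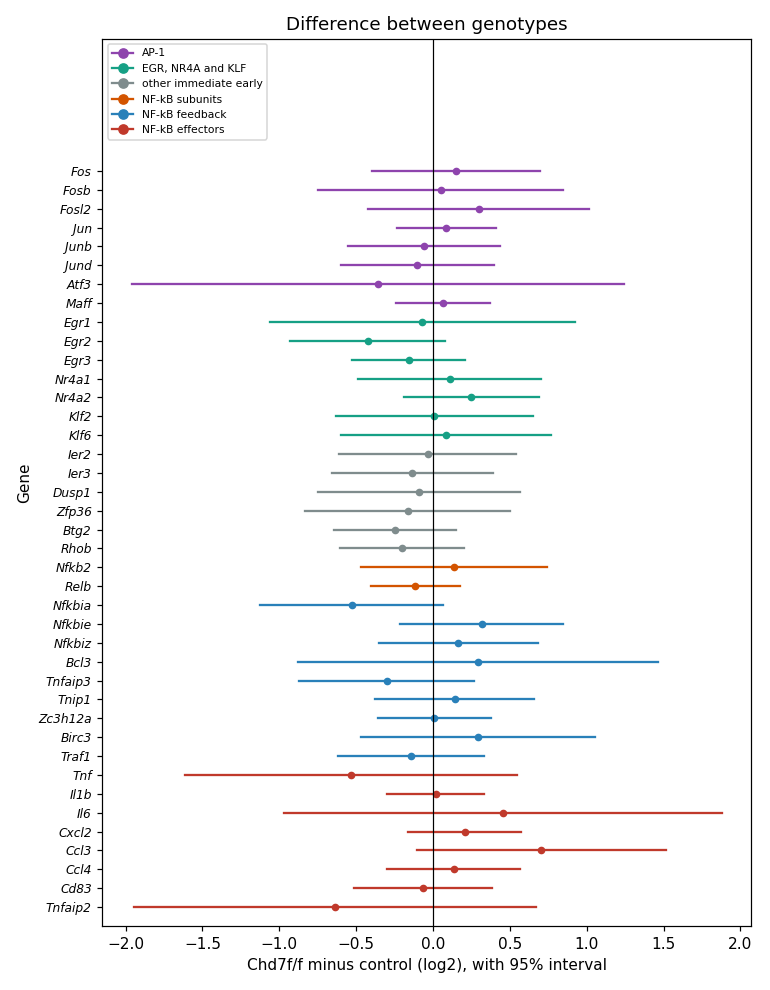
Chd7f/f minus control difference (log2, x axis) of the 40 tested genes with limma's 95% interval, coloured by role. The points run from -0.64 for Tnfaip2 to 0.71 for Ccl3, and all 40 intervals include 0.

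No member passed the test between genotypes. Of 40 tested members 0 passed an adjusted p of 0.05 in limma (adjusted p = 0.9998 for each), where 0% of all 15526 tested genes were called. At an unadjusted p under 0.05, 0 of 40 members were called, against 1.84% of all tested genes. The values of Chd7f/f and control leukemias did not overlap for 0 of 40 members, against 6.81% of all tested genes. There were 21 members higher and 19 lower in Chd7f/f leukemias, 52.5% higher against 43.7% of all tested genes, and their median difference was 0.01, against -0.03.

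The intervals give the size of difference that these arrays leave possible. The 95% interval stayed within 1 log2 step on either side of 0 for 30 members and reached past it for 10, which were Fosl2, Atf3, Egr1, Nfkbia, Bcl3, Birc3, Tnf, Il6, Ccl3 and Tnfaip2. Leaving out control replicate 2 brought 4 of 40 members to an unadjusted p under 0.05, against 3.07% of all tested genes in that fit. They were Il6 (1.06), Bcl3 (0.82), Nfkbia (-0.75) and Tnfaip3 (-0.54), and none passed after adjustment. Control replicate 2 was also the array with high Xist and low Eif2s3y, and the part of sex in these values was not tested. Leaving out control replicate 3 brought 1 member there, Egr2 (-0.65), against 2.26% of all tested genes, and leaving out Chd7f/f replicate 2 brought 1, Ccl3 (0.95), against 1.9%. Weighting the arrays brought 2, Nfkbia (-0.52) and Ccl3 (1.11), against 3.68%. The design text calls the 3 samples a genotype independent but does not tie them to single mice. A p-value here sets the difference between genotype means against the spread among these samples, which limma moderates over all tested genes. It reflects the spread of these samples and no wider one.

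Per group, the mean of the members' levels relative to each gene's own mean showed the same spread among leukemias. The AP-1 genes averaged 0.06, -0.17 and 0.13 in Chd7f/f and -0.29, -0.03 and 0.30 in control leukemias. The EGR, NR4A and KLF genes averaged 0.13, -0.15 and -0.02 in Chd7f/f and 0.10, -0.12 and 0.06 in control leukemias. The NF-kB feedback genes averaged 0.18, -0.11 and -0.03 in Chd7f/f and -0.20, 0.17 and -0.0045 in control leukemias. Chd7f/f replicate 2 was the lowest Chd7f/f array in these 3 groups, and the order of the control arrays changed from group to group.

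Heat shock genes, which also respond to handling, were set beside these means. The 9 measured heat shock genes averaged -1.0, 1.04 and 0.43 in Chd7f/f and -0.67, 0.21 and -0.02 in control leukemias. Hspa1a, Hspa1b and Hsph1 had the widest ranges, at 6.16, 7.47 and 2.49, while Hspa8 and Hsp90aa1 ranged by 0.16 and 0.44. Hspe1 (7.90) and Hspd1 (9.24) were highest in control replicate 1, where the mean was low. Hspa1b was at 4.15, 11.62 and 9.73 in Chd7f/f and 4.62, 8.47 and 8.01 in control samples, and its near-identical neighbour Hspa1a at 5.91, 11.34 and 9.49 in Chd7f/f and 5.18, 8.14 and 6.80 in control leukemias. Probes of these 2 genes may not tell them apart. Chd7f/f replicate 2, the highest array for both, was the lowest Chd7f/f array for the AP-1 mean. Control replicate 1, where Hspa1a and Dnajb1 were lowest, was also the lowest array for the AP-1 mean and for Fos. Hspa1b, Hsp90aa1, Hsph1, Hspa8, Hspe1, Hspd1 and the heat shock mean were instead lowest in Chd7f/f replicate 1, where the AP-1 mean was 0.06. Hspb1 was lowest in Chd7f/f replicate 3. The labels give no sorting time or date, and the part of handling in the levels was not tested.

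**Figure D4:**
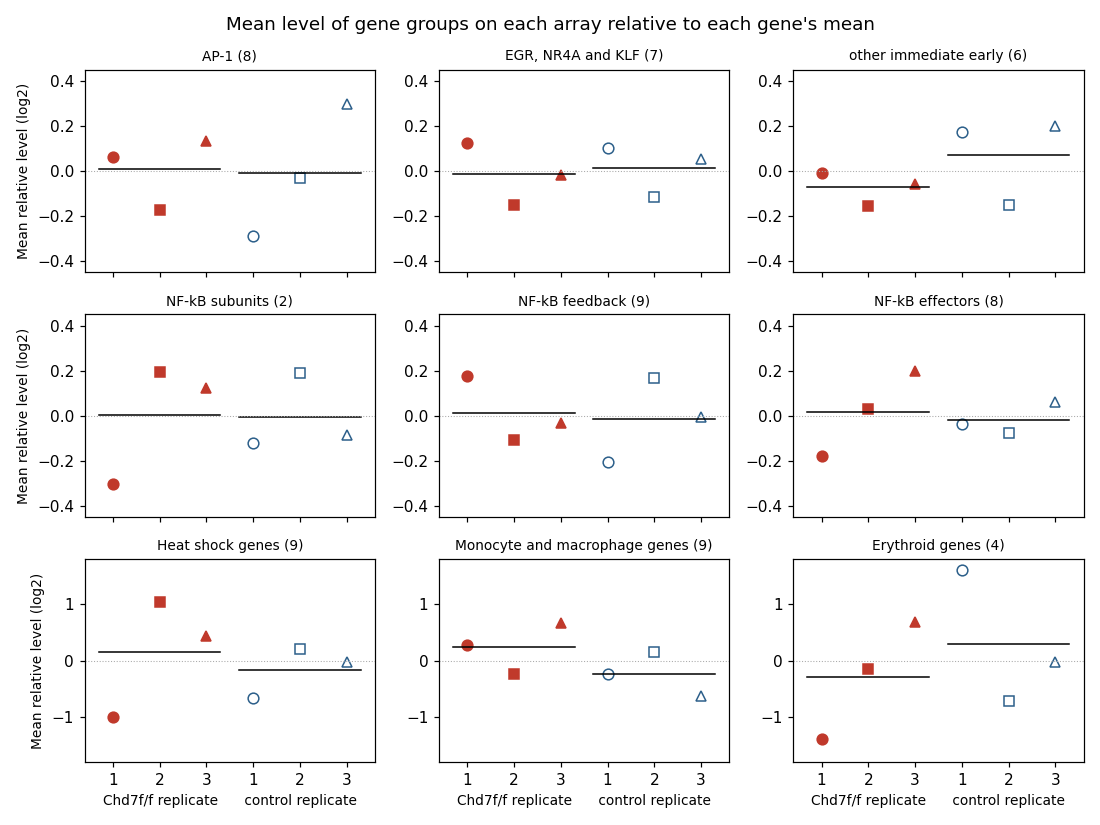
Mean of the tested genes of each group on each array, relative to each gene's mean over 6 arrays (log2, y axis, with a wider range in the bottom row), with filled symbols for Chd7f/f, open symbols for control, black lines for genotype means and the number of genes in brackets. The AP-1 mean is highest in control replicate 3 (0.30) and lowest in control replicate 1 (-0.29). The mean of the heat shock genes runs from -1.0 in Chd7f/f replicate 1 to 1.04 in Chd7f/f replicate 2.

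Other genes of the same pathways were counted over a wider list of kinases, subunits and targets. Of 106 genes listed 98 were measured and 91 tested, with 51 higher and 40 lower in Chd7f/f leukemias and a median difference of 0.02. None passed the adjusted threshold in limma, where 0% of all tested genes did. At an unadjusted p under 0.05 there were 0 higher, against 0.696% of all tested genes, and 3 lower, against 1.15%.

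The 3 lower genes were Dusp4, Tab1 and Ccl5. Dusp4, a nuclear MAP kinase phosphatase, was at 4.66, 4.69 and 4.57 in Chd7f/f and 5.24, 5.0 and 4.84 in control leukemias (-0.39, SE 0.14, limma adjusted p = 0.9998). Tab1, an activator of the kinase Map3k7 upstream of IKK, was at 9.09, 9.13 and 9.18 in Chd7f/f and 9.65, 9.39 and 9.33 in control leukemias (-0.32, SE 0.13). The chemokine gene Ccl5 was at 6.20, 5.52 and 6.48 in Chd7f/f and 7.57, 6.68 and 6.56 in control leukemias (-0.86, SE 0.36). In each of the 3 genes all Chd7f/f values lay below all control values. Over the 91 tested genes of this list the genotypes did not overlap for 5, or 5.49%, against 6.81% of all tested genes, and the fifth of them, Dusp5, was higher in Chd7f/f.

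Next in order of p were Nod2 (-0.22), an intracellular sensor of bacterial peptidoglycan, the TNF receptor gene Tnfrsf1b (0.46) and the p38 kinase gene Mapk14 (0.34). Nod2 values did not overlap between genotypes, at 5.0 to 5.04 in Chd7f/f and 5.20 to 5.30 in control leukemias, while those of Tnfrsf1b and Mapk14 did. By group, 6 of 14 tested genes of SRF and MAP kinase input were higher, 15 of 29 further immediate early genes, 9 of 16 genes of IKK and receptor adaptors and 12 of 23 further NF-kB targets. All 9 tested genes among the further NF-kB subunits and inhibitors were higher, where 43.7% of all tested genes were. Their median difference was 0.10, and none of the 9 had an unadjusted p under 0.05. Their mean relative level was 0.26, -0.087 and -0.026 in Chd7f/f and -0.12, 0.046 and -0.080 in control samples, and without Chd7f/f replicate 1 there were 7 higher and 2 lower with a median difference of 0.051. Rela, the main activating subunit, was at 10.77, 10.72 and 10.52 in Chd7f/f and 10.35, 10.73 and 10.62 in control leukemias. Rel, the subunit of lymphoid and myeloid cells, spread far more, at 7.98, 5.55 and 6.72 in Chd7f/f and 6.67, 7.47 and 5.78 in control samples, and overlapped between genotypes.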

How the data were processed

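Total RNA of 6 samples was measured on 1 array each, 3 Chd7f/f and 3 control by their titles. The authors deposited log2 values per probe set. Per the submitters' processing notes, RMA and Affymetrix Expression Console were used. Their settings are not stated. RMA equalises arrays, so differences in total signal between arrays are no longer visible.

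Of 41345 probe sets, 23521 had 1 gene symbol, 1814 several and 16010 none listed. Current symbols came from RefSeq (GRCm38.p6) by Entrez identifier for 21994 of 22180 named genes. For each gene the probe set with the highest mean was kept, and genes at or above the 30th percentile of mean level (4.13) were tested. The difference between genotypes was tested in R 4.3.3 by limma 3.58.1, using lmFit and eBayes with no covariate, and Benjamini-Hochberg adjustment over all tested genes. The fit was tested on simulated data.

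The members, the lists of other genes and the tests were chosen with earlier results of these data known, so the lists got no test. All members are accounted for. Values on every array were given for the 2 members of each group with the largest difference and the 2 with the largest range, for members without overlap and for Egr1, Fos, Nfkbia, Tnf, Il1b and Il6. Further members, Rela and Rel, and the markers were added after their values were seen. From the other genes the 6 with the smallest p were named. Alternatives were another normalization, centring, filters, probe set rules, priors, weighting of arrays, a block for replicate number and leaving out each array.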

Additional observations from a re-analysis of the deposited data

How the results depend on the processing

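No gene and no member passed an adjusted p of 0.05 in limma under any of the 14 alternatives tried, and precision is limited by there being 6 arrays. At an unadjusted p under 0.05 the count over all tested genes was 286, and it was 530 with no filter (22180 genes tested), 159 with a filter at the 50th percentile (11090 genes tested), 571 with array weights and between 270 and 477 when an array was left out. The count of members was 0, and it was 2 with array weights (Nfkbia at -0.52 and Ccl3 at 1.11) and 0 to 4 when an array was left out, the 4 without control replicate 2. With the replicate number as a block it was 1 (Nfkbia), against 2.14% of all tested genes. Over all tested genes same-numbered arrays did not deviate together, with correlations of 0.027, -0.025 and 0.034, so the numbers were not taken as pairs. Such a correlation cannot show whether a smaller set of genes follows the replicate number. The heat shock mean was lowest in replicate 1 and highest in replicate 2 of both genotypes. The AP-1 mean was lowest in replicate 2 of Chd7f/f and in replicate 1 of control leukemias. Whether the numbers mark shared handling was not tested. The block moved no other result past its threshold or in sign. The median difference of the members, 0.01, lay between -0.044 and 0.095 when an array was left out. The 108 group levels recomputed with another normalization, centring or the mean of probe sets moved by less than the spread between arrays.

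The sign of a member's difference did not change in 309 of 317 values computed with all 6 arrays. The 8 that changed came with array weights, at -0.049 for Fos, -0.13 for Fosb, 0.0026 for Egr3, -0.18 for Klf2, -0.064 for Klf6, -0.11 for Zc3h12a, -0.012 for Il1b and 0.047 for Cd83. When an array was left out, 37 of 240 values changed sign, in 23 members. In the AP-1 group the lowest and highest values were -0.028 and 0.36 for Fos, -0.14 and 0.41 for Fosb, -0.21 and 0.13 for Junb, -0.22 and 0.10 for Jund, -0.95 and 0.16 for Atf3, and -0.014 and 0.12 for Maff. Among the other immediate early genes they were -0.35 and 0.37 for Egr1, -0.11 and 0.35 for Nr4a1, -0.19 and 0.20 for Klf2, -0.10 and 0.38 for Klf6, -0.23 and 0.16 for Ier2, -0.35 and 0.10 for Dusp1, and -0.40 and 0.11 for Zfp36. Among NF-kB subunit and feedback genes they were -0.015 and 0.38 for Nfkb2, -0.028 and 0.32 for Nfkbiz, -0.14 and 0.82 for Bcl3, -0.021 and 0.31 for Tnip1, -0.081 and 0.12 for Zc3h12a, -0.022 and 0.48 for Birc3, and -0.25 and 0.050 for Traf1. Among effectors they were -0.054 and 0.083 for Il1b, -0.19 and 1.06 for Il6, and -0.21 and 0.065 for Cd83. The sign held in the other 17 members, though 39 of 40 members moved by over 1.5 times or changed sign without 1 of the arrays, Nfkbia being the exception. Of members without a full range in the report, Jun lay between 0.0005 and 0.18, Egr3 between -0.26 and -0.066, and Nr4a2 between 0.11 and 0.37. Ier3 lay between -0.32 and -0.024, Btg2 between -0.35 and -0.14, and Rhob between -0.33 and -0.051. Relb lay between -0.15 and -0.050, and Nfkbie between 0.11 and 0.48. Cxcl2 lay between 0.13 and 0.32, Ccl4 between 0.016 and 0.29, and Tnf between -0.88 and -0.14. The cause of these changes was not tested beyond the array left out.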
